A study of Gallus gallus with 6 samples.

Results

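Only 4 named genes followed AvBD1 up and down across 6 libraries of chicken blood leukocytes. They are LOC425137, AvBD5, PNPLA4 and CMKLR1, out of 4643 named genes that could be members and 4859 measured in all. AvBD1 encodes an avian beta-defensin, a small cationic peptide that kills bacteria and is stored in the granules of heterophils, the birds' counterpart of mammalian neutrophils. A gene was taken as a member if its log2 signal, relative to the array's 75th percentile, had a Pearson r with AvBD1 of at least 0.95 over the 6 arrays and a highest minus lowest array of at least 1.5 log2. Genes on Z and W were left out, as were 8 other genes of heterophil granules with known like profiles (AvBD4, AvBD6, AvBD7, DEFB4A, CATH1, CATH2, LECT2 and LYG2). The members were thus chosen by their r and range on these arrays, so both values are descriptions here and were not tested.

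Beta-defensins and cathelicidins are host defence peptides. Granulocytes make some of them, but not all, while they mature in the bone marrow and carry them ready-made into the blood. LECT2 and the lysozymes are other secreted proteins of myeloid cells. In bulk RNA of a mixed leukocyte fraction, fewer cells of a type and less RNA per cell cannot be told apart.

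The study compared the sexes of chickens aged 1 to 2 months, with 3 leukocyte samples labelled female and 3 labelled male, each on 1 array read in 1 colour. The cells were blood cells of the wing vein, recovered at the interface after Ficoll-Paque centrifugation. Such gradients are commonly used to collect lymphocytes, monocytes and thrombocytes, while granulocytes are denser and mostly sink below the interface. How many heterophils stayed in each sample was not measured. The title of the series speaks of transgenic and non-transgenic chickens, but the labels spell out no genotype or strain for these samples. The sample titles carry a letter w before f or m, whose meaning the labels do not give. Nor do the labels tie the samples to individual birds. The p-values below therefore cover no more than the scatter among these samples, which may be technical.

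Between 79.0% and 83.1% of the non-control spots of an array were well above background, and no spot was saturated. The 3 arrays labelled female shared 1 slide and the 3 labelled male another, so that sex label and slide cannot be told apart. The W-linked gene HINTW went against the labels of 2 libraries. It read log2 values of 6.61, 6.47 and 4.65 on the female-labelled arrays 1 to 3 and of 4.58, 4.48 and 6.99 on the male-labelled arrays 1 to 3. The library labelled female 3 was thus low and the library labelled male 3 high, and these 2 libraries also had the highest AvBD1 signals; a link between both facts was not tested. For AvBD1 and the members, the ranges, correlations, slopes and sex differences are therefore also given without this pair, as are the wider list means. Of 20 listed T cell gene names 12 matched a measured gene, and of 20 listed B cell gene names 13. A measured gene was by the filter well above background on 3 or more arrays. All of these T and B cell genes were so on all 6 arrays, as were 14 of the 16 measured erythroid and 15 of the 16 measured granule genes. These counts therefore set no cell type apart.

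AvBD1 itself read 3.55 log2 on female-labelled array 1, 1.98 on array 2 and 5.52 on array 3, against 3.31, 0.74 and 5.32 log2 on male-labelled arrays 1, 2 and 3. Its signal thus spanned 4.78 log2, or 27.4-fold. In order of signal, a female-labelled library was each time followed by the male-labelled library of the same number. Both libraries numbered 3 were high, both numbered 1 were intermediate and both numbered 2 were low. Those numbered 2 lay well apart, at 1.98 and 0.74 log2, so the libraries did not form even steps. The labels do not say that a number marks a shared bird, day or batch. The other 3 AvBD1 probes showed the same pattern, with an r of 1.00 against the brightest probe and ranges of 4.84 to 5.02 log2.

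**Figure D1:**
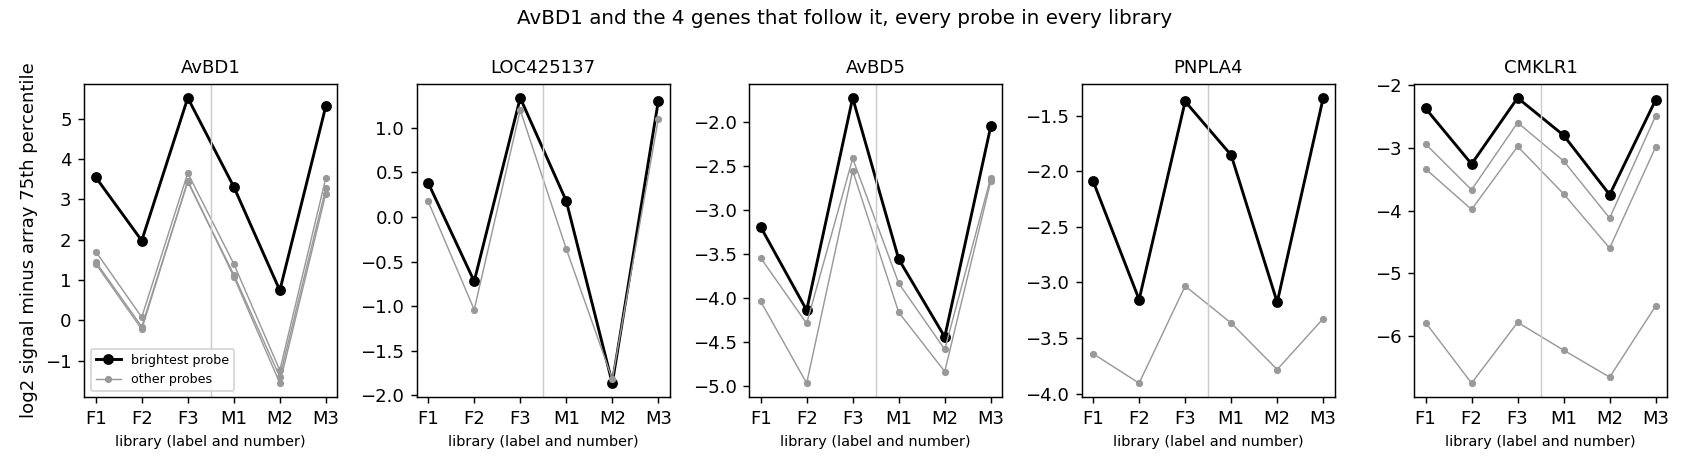
Log2 signal relative to the array's 75th percentile (y axis, own scale per panel) in the libraries labelled female (F1 to F3) and male (M1 to M3). The black line is the brightest probe of each gene and grey lines are its other probes; F3 and M3 were the 2 highest libraries for the brightest probe of all 5 genes, and M2 the lowest.

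LOC425137, on chromosome 1, was the member closest to AvBD1. RefSeq lists it with the synonym AKR1B1L, a name of the aldo-keto reductases, enzymes that reduce aldehydes and ketones. It read log2 values of 0.38, -0.72 and 1.34 on the female-labelled arrays 1 to 3 and of 0.18, -1.86 and 1.30 on the male-labelled arrays 1 to 3. All 6 libraries stood in the same order as for AvBD1, and the range was 3.20 log2, or 9.18-fold. Without the library labelled male 2, its lowest, the range was 2.06 log2. Its r with AvBD1 was 0.991. The second LOC425137 probe gave an r of 0.995 and a range of 3.02 log2, and it read -0.36 log2 in the library labelled male 1.

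AvBD5 was the member of AvBD1's own gene family, a beta-defensin gene of the same cluster on chromosome 3. It read -3.19 log2 on female-labelled array 1, -4.14 on array 2 and -1.73 on array 3, against -3.56, -4.44 and -2.05 log2 on male-labelled arrays 1, 2 and 3. The order of the libraries was again that of AvBD1, with an r of 0.978 and a range of 2.71 log2, or 6.55-fold. Its other 2 probes gave r of 0.983 and 0.952, with ranges of 2.16 and 2.41 log2. Beta-defensin genes are related in sequence. Probe sequences were not used here, so how far an AvBD5 probe also binds RNA of its neighbours was not tested.

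PNPLA4, on chromosome 1, belongs to the patatin-like phospholipase family, whose human PNPLA4 protein acts on triglycerides and retinyl esters. It read log2 values of -2.09, -3.15 and -1.37 on the female-labelled arrays 1 to 3 and of -1.85, -3.18 and -1.34 on the male-labelled arrays 1 to 3. Unlike the other 3 members it was slightly higher in the library labelled male 3 than in female 3 and in male 1 than in female 1, and its range was 1.84 log2, or 3.58-fold. Its r was 0.956. The second PNPLA4 probe followed AvBD1 less closely, with an r of 0.865 and a range of only 0.87 log2, so the membership of PNPLA4 rests on 1 probe.

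CMKLR1, on chromosome 15, encodes a G-protein-coupled receptor for the chemoattractant chemerin, which in mammals draws macrophages and dendritic cells to inflamed tissue. It read -2.38 log2 on female-labelled array 1, -3.26 on array 2 and -2.21 on array 3, against -2.80, -3.75 and -2.24 log2 on male-labelled arrays 1, 2 and 3. The libraries kept the order of AvBD1, but the 2 highest stood only a little above the library labelled female 1. CMKLR1 had an r of 0.959 and the smallest range of the members, 1.54 log2 or 2.91-fold. Without the library labelled male 2, its lowest, the range was 1.05 log2, below the minimum. AvBD5 and PNPLA4 kept ranges of 2.41 and 1.815 log2 without that library. Of its other 3 probes, 2 gave r of 0.986 and 0.978 with ranges of 1.63 and 1.62 log2, and the dimmest gave 0.902 with a range of 1.23 log2.

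Every brightest probe of the members was well above background on all 6 arrays. On the array where each came closest to the dimmest spot called well above background, AvBD5 still lay 2.29 log2 above that spot, CMKLR1 2.98, PNPLA4 3.55 and LOC425137 4.86 log2.

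The members moved less than AvBD1. On a log2 against log2 scale, the least squares slope on AvBD1 was 0.66 for LOC425137, 0.58 for AvBD5, 0.43 for PNPLA4 and 0.32 for CMKLR1. These are slopes of the brightest probes. The other probes had slopes of 0.638 for LOC425137, 0.461 and 0.532 for AvBD5, 0.152 for PNPLA4 and 0.245 to 0.334 for CMKLR1. The order of PNPLA4 and CMKLR1 thus depends on the probe. The 8 granule genes left out by name had slopes from 0.87 to 1.13, ranges from 4.06 to 5.82 log2 and r from 0.992 to 0.999, so none of the members reached the range of any of them. Among themselves, the 4 members had pairwise r from 0.911 (CMKLR1 with AvBD5) to 0.978 (CMKLR1 with LOC425137). All these values are over the same 6 libraries. Since each member was chosen for a high r with AvBD1 on these arrays, the high pairwise r largely follow from the choice. With the pair numbered 3 left out, ranges were 2.81 log2 for AvBD1, 2.25 for LOC425137, 1.25 for AvBD5, 1.32 for PNPLA4 and 1.37 for CMKLR1, so the last 3 fell below the range minimum. The slopes on AvBD1 were then 0.79 for LOC425137, 0.42 for AvBD5, 0.48 for PNPLA4 and 0.44 for CMKLR1, and pairwise r ran from 0.849 to 0.992.

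**Figure D2:**
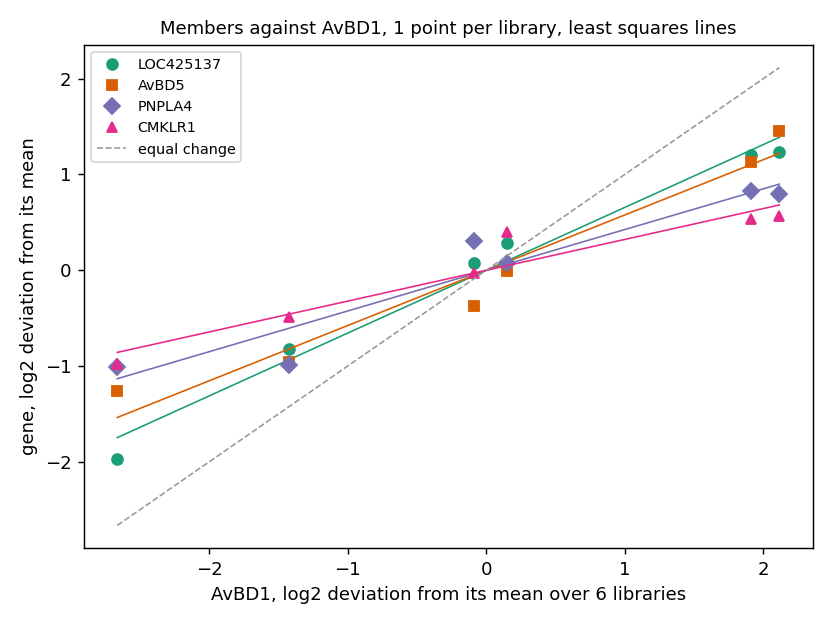
Each member's log2 deviation from its own mean (y axis) against that of AvBD1 (x axis), with 1 point per library and a least squares line per gene. All 4 lines are flatter than the dashed line of equal change, with slopes from 0.32 for CMKLR1 to 0.66 for LOC425137. Values are those of the brightest probe of each gene.

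LOC425137 and AvBD5 kept an r above the minimum with any 1 library left out, and PNPLA4 and CMKLR1 did not. The 2 libraries farthest from the median of AvBD1 were those labelled male 2 and female 3. Over the 4 libraries left, r was 0.996 for LOC425137, 0.990 for AvBD5, 0.936 for PNPLA4 and 0.906 for CMKLR1. Leaving out 1 library at a time, the lowest r was 0.988 for LOC425137 and 0.970 for AvBD5, both without the library labelled male 3. It was 0.938 for PNPLA4 and 0.920 for CMKLR1, both without the library labelled male 2. With the libraries labelled female 3 and male 3 both left out, r over the other 4 was 0.997 for LOC425137, 0.968 for AvBD5, 0.974 for CMKLR1 and 0.906 for PNPLA4. Each slide held only 3 arrays, too few for a correlation within it. Within the female-labelled slide all 4 members had the order of AvBD1, and so they did within the male-labelled slide. Since the members were chosen by r over these same arrays, this order largely follows from the choice.

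Profiles as close and as wide as these were rare. Of the 4858 named genes other than AvBD1, 12 (0.247%) passed both minimums, namely the 4 members and the 8 genes left out by name. The median r of these 4858 genes was 0.05 and their median range 0.60 log2. A range of at least 1.5 log2 was found for 431 genes (8.87%), and 12 of these (2.78%) had an r of at least 0.95; at any range, 14 of the 4858 (0.288%) did. Ranked by library, 8 genes (0.165%) had exactly the order of AvBD1. They include the members LOC425137, AvBD5 and CMKLR1 and the left-out AvBD4, CATH1, LECT2 and LYG2. How often an arbitrary order would be matched was not tested, so this share is no measure of rarity. Among 24650 probes with no gene name here, 9 (0.0365%) passed both minimums. The widest of these was probe A_87_P000199 with a range of 6.42 log2 and an r of 0.992, and the closest was A_87_P128803 with an r of 0.998 and a range of 4.85 log2. These shares describe the rule's own measures and were not tested.

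The gene nearest to the limit was LYZ, which encodes the secreted c-type lysozyme that cuts bacterial cell walls. It read log2 values of 0.99, 0.46 and 2.30 on the female-labelled arrays 1 to 3 and of 0.47, -0.05 and 2.31 on the male-labelled arrays 1 to 3. Its r of 0.9498 fell just short, with a range of 2.36 log2 wider than those of PNPLA4 and CMKLR1. LYZ had an r of 0.885 and a range of 1.035 log2 with the pair numbered 3 left out. CBY1 at 0.912 and MEP1A at 0.906 came next among genes past the range minimum. TXNDC5 (r 0.973, range 0.98 log2) and NFKB1 (r 0.961, range 0.40 log2) followed AvBD1 closely but within too narrow a range. Just inside the limits lay PNPLA4 by r and CMKLR1 by range.

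**Figure D3:**
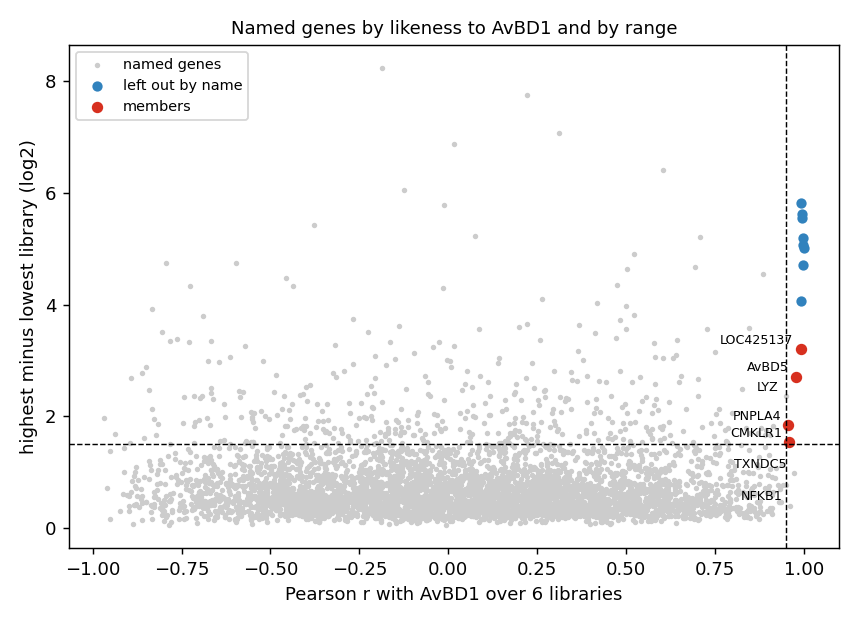
Pearson r with AvBD1 over 6 libraries (x axis) and highest minus lowest library in log2 (y axis) for the 4858 other named genes. Dashed lines mark the minimums of 0.95 and 1.5 log2; the 4 members (red) lie below the 8 genes left out by name (blue) in range, and LYZ sits at the line with an r of 0.9498.

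CCLL4, a CC chemokine gene on chromosome 19, was the only named gene off the sex chromosomes that mirrored AvBD1, with an r of -0.968 and a range of 1.97 log2 (1 of 4643 genes, 0.0215%, at the same minimums with the sign of r turned). It was named after its values were seen. It read log2 values of -2.54, -1.99 and -3.83 on the female-labelled arrays 1 to 3 and of -2.54, -1.85 and -3.56 on the male-labelled arrays 1 to 3. It was thus lowest in both libraries where AvBD1 was highest, and highest in male 2, where AvBD1 was lowest. The gene has 1 probe here, and its r over the 4 libraries numbered 1 and 2 was -0.969. Its values in those 4 libraries lay only between -2.54 and -1.85 log2, which falls short of the range minimum.

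The beta-defensin cluster on chromosome 3 holds AvBD1, the member AvBD5 and some of the genes left out by name. Of its 14 genes in the RefSeq order, 11 were measured, and 6 of these followed AvBD1 or are AvBD1 itself: AvBD7, AvBD6, DEFB4A, AvBD1, AvBD5 and AvBD4. All 6 are AvBD1, a member or genes left out for known like profiles, so this count follows from the choice. Of all named genes other than AvBD1, 0.247% passed both minimums. The 6 genes stand next to each other except for AvBD3, between AvBD1 and AvBD5. AvBD3 read -6.19 log2 on female-labelled array 1, -6.52 on array 2 and -4.74 on array 3, against -6.97, -5.56 and -4.69 log2 on male-labelled arrays 1, 2 and 3. It too was highest in both libraries numbered 3, but male 2 was not its lowest library, and its r was 0.546. Its probe was not well above background in the library labelled male 1.

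AvBD8, AvBD9, AvBD10 and AvBD13, on the other side of AvBD7, were flat, with ranges of 0.38 to 0.69 log2 and r between -0.31 and 0.44. The probes of AvBD11 did not pass the filter on dim probes, and AvBD12 and AvBD14 have no named probe here. AvBD5 therefore lies inside the block of granule defensins but with a range of 2.71 log2, against 5.63 log2 for AvBD4 beside it and 4.78 log2 for AvBD1. With the pair numbered 3 left out these ranges were 1.25, 3.18 and 2.81 log2, and AvBD3 had an r of -0.700.

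**Figure D4:**
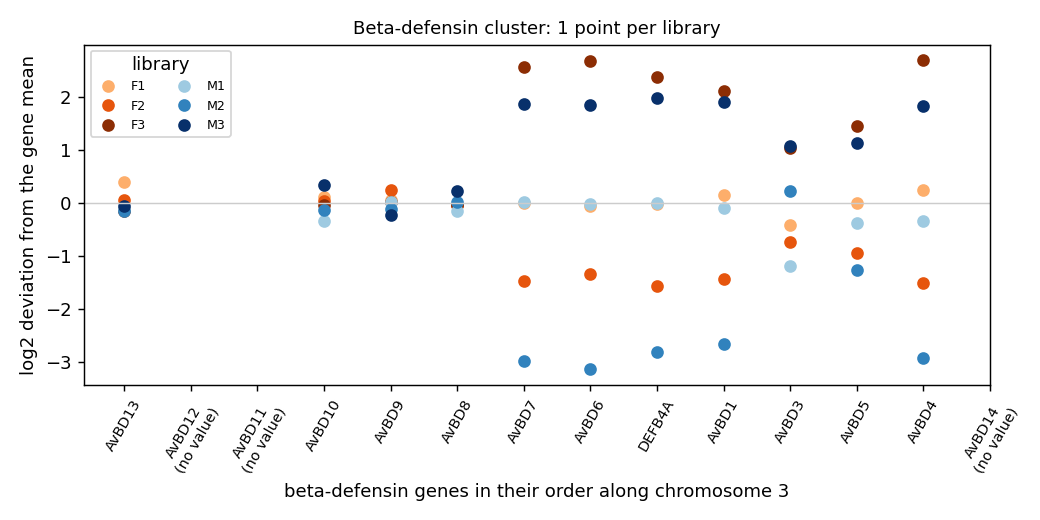
Log2 deviation of each library from the gene's mean (y axis) for the beta-defensin genes in their order along chromosome 3 (x axis), coloured by library. AvBD7, AvBD6, DEFB4A, AvBD1 and AvBD4 span 4.78 to 5.82 log2, AvBD5 spans 2.71, and the 4 measured genes from AvBD13 to AvBD8 span at most 0.69.

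Relatives of the other members, looked up after the members were known, did not pass the rule. Only 0.247% of all named genes other than AvBD1 passed both minimums, so this says little about the families. LOC425137 lies directly beside AKR1E2 in the RefSeq order, and AKR1E2 was the nearest of the other 5 measured aldo-keto reductase genes, with an r of 0.891 and a range of 1.44 log2. Without the pair numbered 3, AKR1E2 had an r of only 0.568 and a range of 0.48 log2. Over all 6 libraries AKR1D1 had an r of 0.504, AKR1A1 0.489, AKR1B10 0.388 and AKR1B1 0.117. Of the other 4 measured patatin-like phospholipase genes, PNPLA7 had the highest r with AvBD1, 0.185, and PNPLA2, a triglyceride lipase, ran the other way at -0.735 with a range of 0.82 log2. RARRES2, which encodes chemerin, the ligand of CMKLR1, had an r of 0.323. It was highest in the library labelled male 1, at -1.89 log2, and lowest in female 2, at -3.21 log2.

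Other heterophil genes were listed apart from those chosen for their likeness. Of 25 listed granule gene names 16 matched a measured gene. Of these, 8 are AvBD1 and genes the rule leaves out and 1 is AvBD5, so their likeness follows from the choice. The listed name AvBD2 is a synonym of DEFB4A, which was measured and left out by the rule but is not in this count. Among the 7 granule genes that were not chosen, 5 had an r above 0 and 2 below, where 53.6% of all named genes were above 0. LYZ was the highest, followed by MMP9, a gelatinase, at 0.654 and AvBD3 at 0.546, while HPSE, a heparanase, had -0.594 and RSFR -0.116. The mean deviation of these 7 ran from -0.41 log2 in the library labelled female 2 to 0.54 log2 in male 3. With the pair numbered 3 left out it ran from -0.15 to 0.15 log2.

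In a list of oxidase, adhesion and chemotaxis genes, 0 of 10 measured genes passed both minimums, where 0.247% of all named genes did, so this count says little about the list. An r above 0 was found for 6 of them and below 0 for 4, where 53.6% of all named genes were above 0. The chemokine receptor CXCR4 had 0.698, CXCR1 0.467 and CSF3R, the receptor for granulocyte colony-stimulating factor, 0.393, while the integrin gene ITGB2 had the lowest, -0.394. The mean deviation lay between -0.23 log2 in female 1 and 0.30 log2 in female 3. In a list of granulocyte development genes, 10 of 12 measured had an r above 0, beside the same 53.6%. Again 0 passed, beside the same 0.247%, which says little about the list. These counts were not tested. The transcription factor CEBPA had an r of 0.715, MYB 0.689 and the receptor KIT 0.633, and IRF8 had the lowest, -0.303. The mean deviation ran from -0.30 log2 in female 2 to 0.16 log2 in female 3.

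Of the 13 measured monocyte and macrophage genes 11 had an r above 0, against 53.6% of all named genes. Both minimums were passed by 0 of them, against 0.247% of all named genes, which says little about the list. LYZ led, the complement gene C1QC had 0.870 and IRF8 had the lowest r, -0.303. The mean deviation ran from -0.38 log2 in the library labelled female 2 to 0.37 log2 in female 3. The erythroid list had 14 of 16 genes above 0 and ran from -0.62 log2 in male 2 to 0.40 log2 in male 3. Its haemoglobin genes HBBR and HBE had r of 0.783 and 0.782, while XK had the lowest, -0.667, with a range of 3.345 log2. Mean deviations of the thrombocyte, T cell and B cell lists went no lower than -0.24 log2 and no higher than 0.18 log2, and 2 of 6, 9 of 12 and 5 of 13 of their genes had an r above 0. In the cytotoxic cell list the mean deviation was 1.66 log2 in male 2, where AvBD1 was lowest, and -1.30 log2 in female 1. All 6 of its measured genes had an r below 0 with AvBD1. Cell cycle genes likewise had an r below 0 in all 17 measured, and their mean deviation ran from -0.33 log2 in female 1 to 0.51 log2 in male 1. The inflammatory list had 8 of 16 above 0 and ran from -0.32 log2 in female 3 to 0.30 log2 in male 3. With the pair numbered 3 left out, the mean deviation ran from -0.24 to 0.13 log2 for the monocyte list, -0.57 to 0.33 for the erythroid list, -1.47 to 1.49 for the cytotoxic list and -0.42 to 0.41 for the cell cycle list. The part of any of these cells in the members' profiles was not tested.

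**Figure D5:**
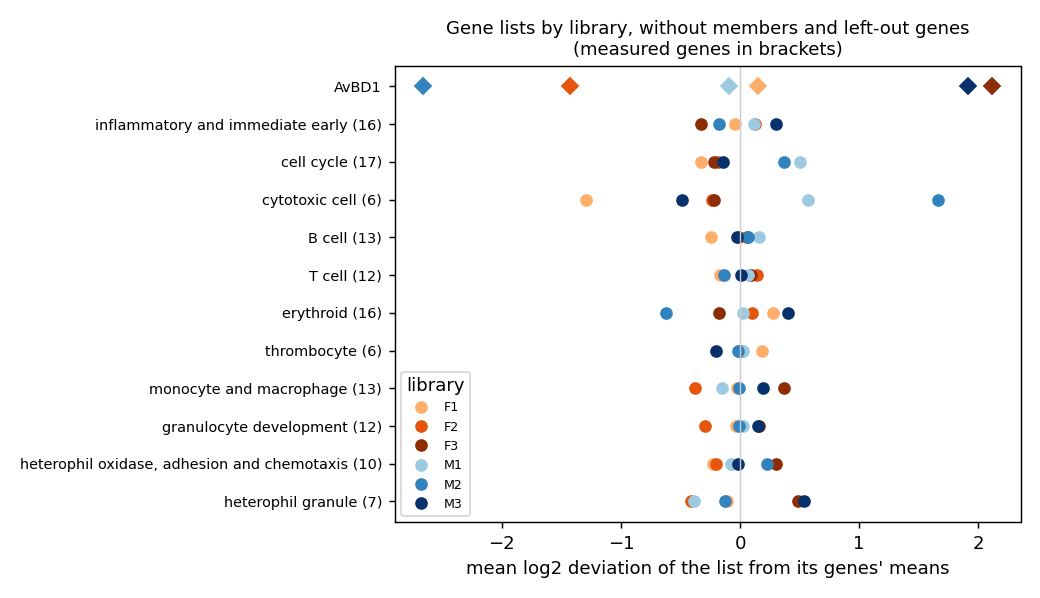
Mean log2 deviation of each gene list from its genes' own means (x axis) in the 6 libraries, with AvBD1 at the top; AvBD1, the genes left out by name and the members are not in the lists. The 7 granule genes left spread from -0.41 to 0.54 log2, the oxidase, adhesion and chemotaxis list from -0.23 to 0.30 log2 and the cytotoxic list from -1.30 to 1.66 log2.

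No difference between the labelled sexes in these genes exceeded the spread between libraries. AvBD1 averaged 3.68 ± 1.77 log2 in the libraries labelled female and 3.12 ± 2.29 log2 in those labelled male (SD, n = 3 each), so that male minus female came to -0.56 log2 (SE 1.34, limma adjusted p = 0.957). The difference was -0.46 log2 for LOC425137 (SE 0.89), -0.33 log2 for AvBD5 (SE 0.80), -0.32 log2 for CMKLR1 (SE 0.45) and 0.08 log2 for PNPLA4 (SE 0.61). For each of the 4 genes the groups overlapped. None of the members passed (limma with Benjamini-Hochberg adjustment over 29509 features, adjusted p from 0.948 to 0.987 over AvBD1 and the members), and none had an unadjusted p under 0.05. Over all features 0 (0.0%) passed and 1124 (3.81%) had an unadjusted p under 0.05. The groups did not overlap for 2362 features (8.0%) and for 0 members.

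The median male minus female difference was -0.32 log2 over the 4 members and -0.01 log2 over all features. Since the members were chosen for their likeness to AvBD1 on the same arrays, their differences follow that of AvBD1 and are not separate evidence. Leaving out the library labelled male 2 turned the AvBD1 difference to 0.63 log2, and leaving out female 3 turned it to 0.36 log2. With the pair numbered 3 left out, the difference was -0.74 log2 for AvBD1 (SE 1.06), -0.67 for LOC425137 (SE 0.82), -0.46 for CMKLR1 (SE 0.47), -0.33 for AvBD5 (SE 0.47) and 0.10 for PNPLA4 (SE 0.61). None of them passed (limma adjusted p from 0.593 to 0.931), while 85 features (0.288%) did.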

How the data were processed

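The authors deposited 1 scanner table per array, whose spot intensity was read with Agilent Feature Extraction 11.5.1.1 on a galGal3 grid, per the file headers. The processed column had its background subtracted and was detrended in space, separately for each array, with no scaling across arrays. The authors' deposited matrix holds the same intensity times 1 factor per array, 2.10 to 2.31; what it was scaled to is not stated.

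For each array, log2 of the processed signal less its 75th percentile (control spots excluded) was used, with 3 to 12 outlier spots per array left out. Probes were kept where 3 or more of the 6 arrays had them well above background, and a gene was its brightest kept probe. Names and gene order came from RefSeq accessions matched to the GRCg7b gene table, a later build than that of the grid, so coordinates are omitted; 11935 of 43603 probes matched 5382 genes. Labelled sexes were compared with limma 3.58.1 in R 4.3.3 (two-sided, Benjamini-Hochberg, threshold 0.05) over 29509 features. The fits were also run on simulated data with independent noise smaller than the observed spread, an easier setting than these arrays. That run does not show how the fits perform at the real spread. The members, the gene lists and the tests were chosen with earlier results of these data known. Genes named by plan were AvBD1, every member, the genes on either side of the minimums, the left-out genes and HINTW. Up to 3 genes per list with the highest r were also planned. The defensin cluster, the members' relatives, CCLL4 and the genes named for an r below 0 in some lists were added later. The depth of an array is limited by its background, and the number of arrays limits the precision. Alternatives covered background correction, scaling, probe filter and summary, the limma settings, a replicate block, the minimums and left-out libraries. Figures were made with Python 3.11.15 and matplotlib 3.10.9.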

Additional observations from a re-analysis of the deposited data

How the results depend on the processing

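The number of genes that met the membership rule was 4 and moved with several settings. It was 2 after normexp background correction with an offset of 50 (AvBD5 and LOC425137), 7 with a minimum r of 0.90, 1 with a minimum of 0.98 (LOC425137) and 2 with a minimum range of 2.0 log2. With 1 library left out it ran from 5 to 10, being 7 without the library labelled female 2, 10 without female 3 (3 of the 4 members among them) and 7 without male 2 (2 of the 4). Without female 3 and male 3 together it was 8, of which only LOC425137 was among the 4. Under 7 other ways of processing the values, r ran from 0.990 to 0.996 for LOC425137, 0.959 to 0.978 for AvBD5, 0.957 to 0.974 for CMKLR1 and 0.944 to 0.959 for PNPLA4. Their ranges fell as low as 2.94, 1.63, 1.01 and 1.33 log2 in that order. Changes to the filter on dim probes, counted among the 7, could not alter these values. The brightest probes of AvBD1 and the members were well above background on all 6 arrays. CMKLR1 and PNPLA4 were lost with normexp and with the mean of all kept probes, and PNPLA4 with quantile normalization and with Spearman rho. LYZ joined with median scaling, with the mean of all kept probes, and with the next brightest AvBD1 probe as reference.

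The male minus female difference passed for no member and not for AvBD1 under any of 16 alternatives. With 1 library left out it ran from -1.65 to 0.63 log2 for AvBD1, -1.17 to 0.41 for LOC425137, -0.98 to 0.31 for AvBD5, -0.66 to 0.093 for CMKLR1 and -0.39 to 0.61 for PNPLA4, so its direction depends on single libraries. The count of features that passed ran from 0 to 2 with 1 library left out (2 without male 1), was 1 after quantile normalization and 85 without female 3 and male 3. The cause was not tested. With the replicate number as a block 0 features passed, and the AvBD1 difference stayed at -0.56 log2 with an SE of 0.27 (limma adjusted p = 0.963). The SE of the members fell too with this block, to 0.27 for LOC425137, 0.14 for AvBD5, 0.17 for CMKLR1 and 0.15 for PNPLA4. Since the members were chosen for their likeness to AvBD1, their fall largely follows from that of AvBD1 and is not separate evidence. Deviations of same-numbered libraries from their labelled group means correlated at 0.01, -0.11 and -0.21 over all features. The numbers were therefore not taken to pair the samples in the main fit. Those means include the libraries whose labels HINTW went against, so this check cannot exclude a pairing.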
